A study of Mus musculus with 60 samples.

Results

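The testes profile is described here from all 6 arrays labelled testes, out of 60 arrays in the series, against the other 7 tissues of the same series. The testes came from male mice of 1 line, 3 of them labelled double knockouts (DKO, B4galnt1 -/- and B4galnt2 -/-) and 3 wild type (WT, +/+ at both genes). RNA was hybridised to a custom Affymetrix array for genes of glycan synthesis, glycan binding and cell signalling, and values are log2 expression as deposited. A difference of 1 therefore means a 2-fold change. The other tissues gave 50 arrays with all lines and genotypes pooled within a tissue. Kidney had 9 arrays (5 DKO, 4 WT), mammary gland 7 (5 DKO, 2 WT) and thymus 6 (5 DKO, 1 WT), all of the line that gave the testes. Lymph node and thyroid had 6 arrays each, 3 of St6galnac2 knockouts (KO) and 3 of their WT. Brain had 9 arrays, 3 KO, 3 WT of that line and 3 of C57 WT mice. Intestine had 7, with 2 KO, 2 WT and 3 C57 WT, and only the C57 arrays are labelled small intestine. The labels call all animals healthy and give no age, and neither the way the genes were deleted nor the deleted parts are given in the sources used here. Arrays that a marker rule set apart from their label were left out before the comparison. These were 1 brain array with Fut9 below 6, 1 intestine array with Fut9 above 6 and 2 thymus arrays with Prol1 above 8. The rule read Prol1 in thymus only. Among arrays kept, Prol1 read 11.08 in the lymph node of WT animal 9362. In mammary gland, taken from both sexes, it read 9.74, 9.74, 9.79 and 12.47 in animals N3738, N9686, N5892 and N5895. The other mammary gland arrays lay between 2.52 and 2.61.

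The testis is made up mostly of germ cells at successive steps of sperm formation, nursed by Sertoli cells inside the seminiferous tubules, with hormone-producing Leydig cells, vessels and macrophages between the tubules. Germ cells are known for genes that few other cells use, among them copies of enzymes and ribosomal proteins, and their surface glycans are known to matter for contact with Sertoli cells and later with the egg. In whole-organ RNA, fewer cells of a type and less RNA per cell cannot be told apart.

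Array medians lay between 5.44 and 5.57 in testes and between 5.30 and 5.76 over the whole series. The upper end of the distribution differed: over 909 named genes the 75th percentile of an array lay between 7.21 and 7.63 in testes, and the lowest and highest such values in the other tissues were 7.70, in thyroid, and 8.54, in intestine. Each testes array resembled the other testes arrays most. With the mean over tissues subtracted, its correlation across genes with the mean of the other 5 testes arrays lay between 0.97 and 0.98, and with the means of the other tissues between -0.40 and 0.04. Genes are not independent replicates, so these are descriptions. The WT arrays of animals N3740 and N3738, the 2 animals whose thymus arrays were left out, stood apart from the other 4 testes arrays, and counts are therefore given with and without them.

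Galntl5, Rpl39l, Dll3 and St6galnac2 were far higher in testes than anywhere else, and for each of them the 6 testes arrays lay above all 50 arrays of the other tissues. Galntl5 encodes a GalNAc-transferase-like protein of male germ cells that is needed for normal sperm in mice. It read 12.14, 11.76 and 11.72 in the DKO testes of animals N5895, N5894 and N5893, and 11.75, 11.45 and 11.39 in the WT testes of animals N9700, N3740 and N3738. The 6 testes arrays spanned less than 1 log2 unit, and the highest value elsewhere was 5.48, in the mammary gland of WT animal N3738. The testes mean of 11.70 ± 0.27 (SD, n = 6) stood 8.26 ± 0.14 (SE) log2 units above the mean of the other 7 tissue means (limma, adjusted p = 1.63e-45). Mean levels elsewhere ran from 3.25 ± 0.15 in intestine (SD, n = 7) to 3.66 ± 0.81 in mammary gland (SD, n = 7). These lie below the 25th percentile of all values, 4.21, where a signal above background is not shown, so the difference is a lower bound.

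Rpl39l, a copy of the ribosomal protein gene Rpl39 that is known for its use in male germ cells, read 10.26, 10.08 and 10.04 in DKO testes and 10.22, 10.35 and 10.38 in WT testes. Mammary gland came next, at 6.29 ± 0.97 (SD, n = 7), with values between 4.97 and 7.75, and the other 6 tissue means lay between 2.79 and 3.65. These 6 lie below that percentile too, so only the difference from mammary gland is given, which testes exceeded 15.25-fold (limma, adjusted p = 9.52e-19). Dll3, a ligand that holds back Notch signalling and is best known from the segmentation of the embryo, read 8.90, 8.78 and 9.19 in DKO testes and 8.87, 9.10 and 9.17 in WT testes. Brain was next at 4.96 ± 0.44 (SD, n = 9), and the gap of 4.04 log2 units to it equals a 16.47-fold difference. The other 6 tissue means of Dll3 lay between 3.77 and 4.04, where neighbouring tissues differed by less than their spread.

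St6galnac2, whose product caps the first GalNAc of protein O-glycans with sialic acid, read 12.39, 12.14 and 11.50 in DKO testes and 12.31, 12.73 and 12.74 in WT testes. Unlike the other 3 genes it was also high in several tissues, with means of 9.28 ± 0.37 in kidney (SD, n = 9), 8.91 ± 0.46 in intestine (SD, n = 7) and 8.40 ± 1.27 in mammary gland (SD, n = 7). The lowest mean was 5.72 ± 0.17, in brain (SD, n = 9). Testes stood 3.02 log2 units, or 8.11-fold, above kidney (limma, adjusted p = 1.48e-13). The tissues of the St6galnac2 line include arrays labelled KO for this very gene, but its level overlapped between KO and WT arrays of that line in all 4 tissues. It averaged 6.34 ± 0.28 in KO and 6.51 ± 0.33 in WT lymph node, 6.01 ± 0.24 in KO and 5.73 ± 0.23 in WT thyroid, and 5.59 ± 0.11 in KO and 5.69 ± 0.02 in WT brain (SD, n = 3 each). In intestine it averaged 8.70 ± 0.07 in KO and 8.75 ± 0.02 in WT arrays (SD, n = 2 each). Where the probes lie relative to the deleted part is not given in the sources used here, so these levels do not check the labels. With the arrays labelled KO left out, the difference from the mean of the other tissue means was 4.93, against 4.94 with them.

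**Figure D1:**
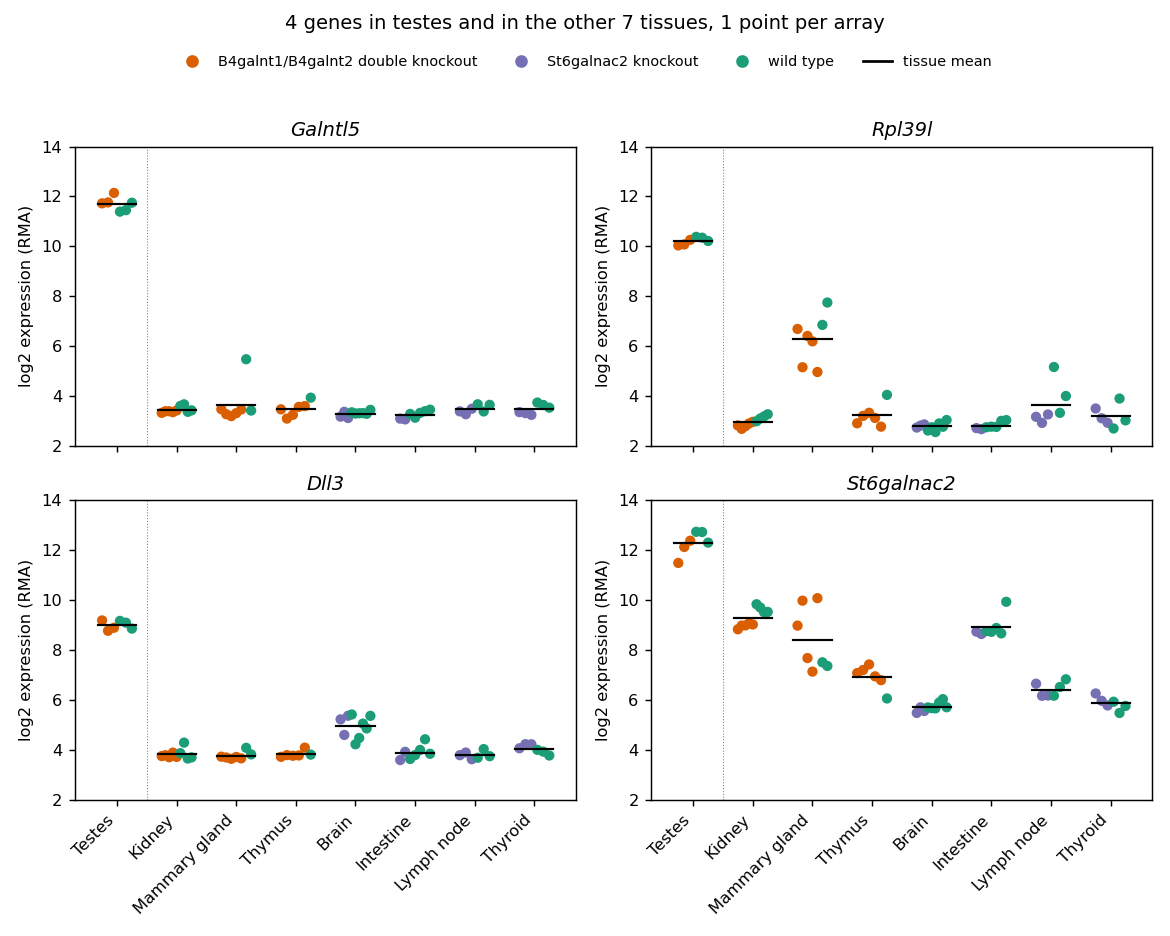
Log2 expression of Galntl5, Rpl39l, Dll3 and St6galnac2 in every array used, by tissue, with testes leftmost. Points are arrays coloured by genotype and black lines are tissue means. All 6 testes arrays lie above all 50 others in each panel, by the widest margin for Galntl5 and the narrowest for St6galnac2, whose highest other value is 10.09 in mammary gland.

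The promoters of genes that rose in testes were read from RefSeq (build GRCm38.p6), which had an entry for 32 of the 37 genes that were higher in testes than in each other tissue. The 250 bases before the annotated start are shown for 4 genes with some of the widest gaps to the next tissue (Galntl5, Rpl39l, Dll3 and Mgat4d) and for Gfpt1, an enzyme gene of sugar supply, so that they can be compared. Capitals mark, on either strand, GTTGC (an arm of the X-box that RFX factors bind), TGACG (a core of the cyclic AMP response element) or TAACNG (the MYB core).
Galntl5, chr5:25181230-25181479, plus strand: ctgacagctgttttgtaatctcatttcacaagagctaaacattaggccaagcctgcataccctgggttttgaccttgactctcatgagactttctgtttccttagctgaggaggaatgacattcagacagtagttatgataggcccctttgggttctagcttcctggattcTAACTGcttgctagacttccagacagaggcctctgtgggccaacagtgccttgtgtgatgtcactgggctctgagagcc
Rpl39l, chr16:10169978-10170227, plus strand: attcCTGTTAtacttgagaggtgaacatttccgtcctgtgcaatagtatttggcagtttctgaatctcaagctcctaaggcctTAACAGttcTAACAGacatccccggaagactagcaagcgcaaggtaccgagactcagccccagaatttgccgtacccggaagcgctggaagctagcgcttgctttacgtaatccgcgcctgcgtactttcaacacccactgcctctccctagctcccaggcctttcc
Dll3, chr7:28301786-28302035, minus strand: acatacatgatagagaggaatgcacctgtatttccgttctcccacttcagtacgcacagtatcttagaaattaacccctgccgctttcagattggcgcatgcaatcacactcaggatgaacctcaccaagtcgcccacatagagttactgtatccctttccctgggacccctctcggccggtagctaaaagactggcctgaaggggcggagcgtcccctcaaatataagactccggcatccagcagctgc
Mgat4d, chr8:83348222-83348471, plus strand: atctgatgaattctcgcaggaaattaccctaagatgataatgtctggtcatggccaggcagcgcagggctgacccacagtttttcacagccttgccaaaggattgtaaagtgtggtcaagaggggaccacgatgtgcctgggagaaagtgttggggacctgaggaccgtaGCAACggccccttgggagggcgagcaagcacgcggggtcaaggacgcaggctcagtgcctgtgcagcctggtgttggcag
Gfpt1, chr6:87042596-87042845, plus strand: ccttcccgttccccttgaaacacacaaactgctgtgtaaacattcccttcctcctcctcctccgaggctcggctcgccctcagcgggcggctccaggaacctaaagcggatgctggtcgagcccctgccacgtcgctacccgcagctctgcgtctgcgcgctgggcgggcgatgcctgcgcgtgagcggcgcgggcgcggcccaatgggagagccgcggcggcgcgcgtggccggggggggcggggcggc
The 5 sequences differ in composition. Over 300 bases, from 250 before to 50 after the start, Galntl5 held 0 CpG dinucleotides at 49.3% G and C, while Gfpt1 held 38 at 70.3%. Rpl39l, Dll3 and Mgat4d lay between them, with 17, 11 and 14 CpG. Galntl5 held 1 MYB core, which is shown, and 2 X-box arms in the 50 bases after the start, which are not printed. Rpl39l held 4 MYB cores, 3 of them shown, and Dll3 held 0 of the 3 motifs.
The X-box arm was in 33.3% of 36 promoters of the genes higher in testes than in each other tissue, in 29.8% of 875 promoters of all genes measured and in 35.2% of all 32851 promoters of the table. The MYB core was in 27.8%, 20.9% and 23.3% of them, and TGACG in 22.2%, 22.2% and 20.8%. The full cyclic AMP response element TGACGTCA, which contains TGACG, was in 0 of the 36 promoters, and in 1.79% of all promoters. The median CpG count was 18.5 in those 36 promoters, 15 in promoters of all genes measured and 7 in the whole table.

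Falls outnumbered rises. Of 909 genes, 73 (8.03%) were higher in testes than the mean of the other 7 tissue means and 185 (20.4%) were lower, at an adjusted p under 0.05 in limma and a log2 difference of at least 1, while 651 were neither. At least 4-fold, 31 genes rose and 44 fell, and at least 8-fold, 14 rose and 8 fell. The median difference over all genes was -0.10. Counted over 963 named probe sets, the calls were 81 higher and 194 lower. After a second quantile normalization of the arrays, which gives every array the same distribution, they were 114 higher and 155 lower, so the balance between rises and falls depends on scaling. Without animals N3740 and N3738 they were 77 higher and 214 lower. Testes came only from the B4galnt1/B4galnt2 line, and brain, intestine, lymph node and thyroid only from other lines. In those 4 tissues line and tissue cannot be told apart.

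**Figure D2:**
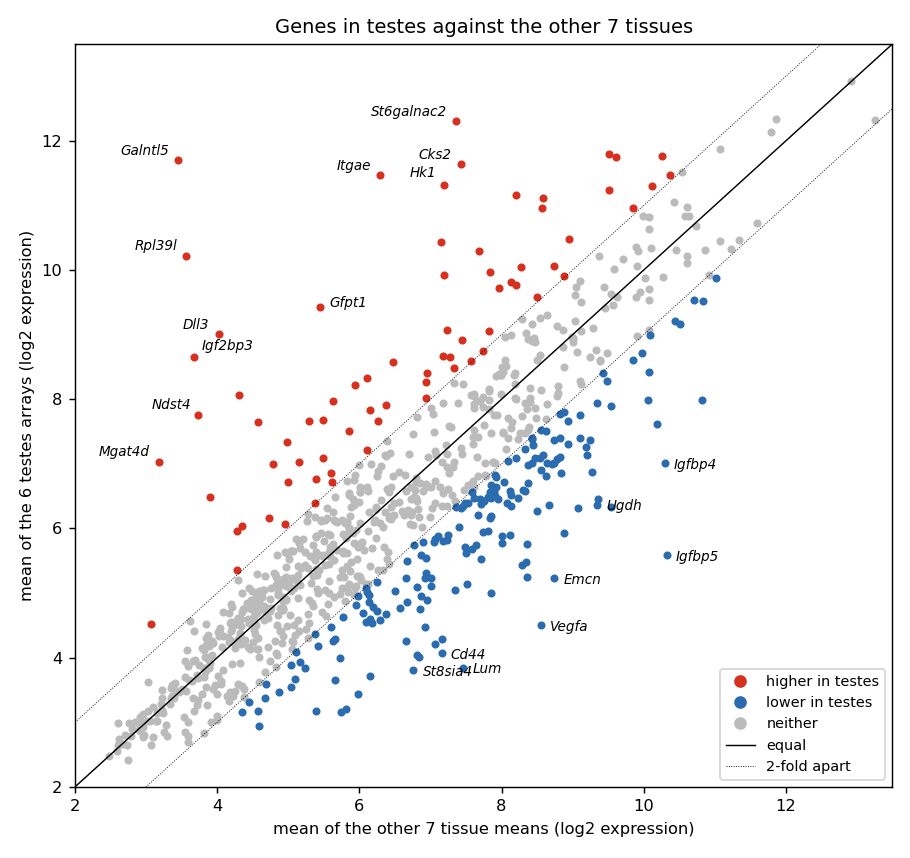
Mean of the 6 testes arrays against the mean of the other 7 tissue means for 909 genes, both in log2 expression. Red points are the 73 genes called higher and blue points the 185 called lower; the solid line marks equality and dotted lines a 2-fold difference. Galntl5, Rpl39l, Dll3, Igf2bp3, Ndst4 and Mgat4d lie at the upper left, low elsewhere and high in testes, whereas Vegfa, Igfbp5 and Emcn lie at the lower right.

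A stricter count asked for genes that differed from each of the other 7 tissues on their own. In testes 37 genes (4.07%) were higher than in every other tissue and 25 (2.75%) were lower, with all 7 limma contrasts past both thresholds. Without regard to a test, all 6 testes arrays lay above all 50 others for 52 genes (5.72%) and below them for 45 genes (4.95%). Of the 37, 34 showed this complete separation, and of the 25, 18 did. Brain was the next highest tissue for 12 of the 37 genes and thymus for 0.

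Among the 37 were genes of germ cells and of the nurse cells around them. Cks2, a partner of cyclin-dependent kinases that mouse germ cells need to pass through meiosis, had a lowest, median and highest testes value of 11.34, 11.71 and 11.86, and kidney came next at 9.51 ± 0.20 (SD, n = 9). Dhh, the hedgehog ligand made by Sertoli cells, read 7.85, 7.42 and 7.85 in DKO testes and 7.22, 7.85 and 7.86 in WT testes, while no array of another tissue exceeded 6.08. Its second probe set was also higher in testes than in each other tissue, by 2.58 ± 0.11 against the mean of the others. Gdf9, best known as a growth factor of the oocyte, lay between 7.95 and 8.32 in testes and between 5.46 and 6.43 elsewhere. Igf2bp3, an RNA-binding protein of early development, averaged 8.65 ± 0.38 in testes (SD, n = 6) and 4.23 ± 0.76 in intestine, the next tissue (SD, n = 7), a gap of 4.42 log2 units, on a probe set that may share probes with other transcripts.

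Several of the 37 act on N-glycans and on the sugars they are made from. Mgat4d, known in mouse testis as an inhibitor of N-acetylglucosaminyltransferase I, lay between 6.86 and 7.39 in testes and between 2.92 and 3.66 in all other arrays, so its groups were far apart. Mgat1, which encodes that transferase, was lower in testes, between 7.15 and 7.67 against 8.10 to 9.90 elsewhere (difference -1.37 ± 0.09, limma adjusted p = 3.19e-20), and its arrays did not overlap either. After the second quantile normalization the Mgat1 difference was -0.79, below the 2-fold limit. Mgat5, which starts a branch on complex N-glycans, and Alg8, which adds a glucose to the lipid-linked precursor, were higher in testes than in each other tissue by at least 1.13 and 1.15 log2 units. Gfpt1, the first and rate-limiting enzyme of the hexosamine pathway, averaged 9.43 ± 0.11 in testes (SD, n = 6) and 6.75 ± 0.54 in intestine (SD, n = 7), the next tissue. Hk1, which phosphorylates glucose, averaged 11.32 ± 0.30 in testes and 9.70 ± 0.20 in brain (SD, n = 6 and 9), and its other tissue means went down to 5.98. Mpi, which links fructose 6-phosphate and mannose 6-phosphate, lay between 10.86 and 11.35 in testes, and no other array exceeded 10.01.

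Other genes of the group sulfate or extend other glycans. Ndst4, an N-deacetylase/N-sulfotransferase of heparan sulfate, averaged 7.76 ± 0.16 in testes (SD, n = 6) and at most 4.11 ± 0.16, in brain (SD, n = 9), elsewhere. Pomt1 and Pomgnt1, which start and extend O-mannose chains such as those of dystroglycan, averaged 10.44 ± 0.12 and 9.78 ± 0.29 in testes (SD, n = 6). Pomt1 stood 6.85-fold above mammary gland, the next tissue, and Pomgnt1 stood 2.01-fold above brain. St8sia2, which builds polysialic acid on N-glycans, averaged 7.33 ± 0.40 in testes and 5.71 ± 0.35 in brain (SD, n = 6 and 9). Arsa, the lysosomal enzyme that removes sulfate from sulfatide and related lipids, averaged 11.17 ± 0.18 in testes and 8.76 ± 0.13 in brain (SD, n = 6 and 9). Cog6, a subunit of the Golgi complex that retrieves glycosylation enzymes, lay between 10.65 and 11.38 in testes and reached 9.55 at most elsewhere.

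Genes known from immune and signalling cells were in the group as well. Itgae, the integrin subunit CD103 of lymphocytes within epithelia, lay between 11.36 and 11.66 in testes, while lymph node, the next tissue, averaged 7.36 ± 0.67 (SD, n = 6). Of 9 leukocyte markers measured 0 were higher in testes and 3 lower, beside shares of 8.03% and 20.4% over all genes. With so few markers, a count of 0 higher is near that share. Which cells gave the Itgae signal was not tested. Wnt6, a Wnt ligand, read 7.89, 7.79 and 7.82 in DKO testes and 7.92, 8.48 and 8.47 in WT testes, and no other array exceeded 5.42. Gps2, a subunit of a transcriptional corepressor complex, and Il3ra, a chain of the interleukin-3 receptor, stood 6.11-fold and 3.65-fold above their next tissues. Clec4g, a C-type lectin, was the most variable of the 37, between 6.61 and 8.37 in testes, and the lowest of these values lay below the highest lymph node array. The remaining 17 genes of the group, St8sia2, Mpi, Notch4, Wnt3a, Pomgnt1, Alg8 and Mgat5 among them, exceeded their next tissue by 1.01 to 1.62 log2 units.

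**Figure D3:**
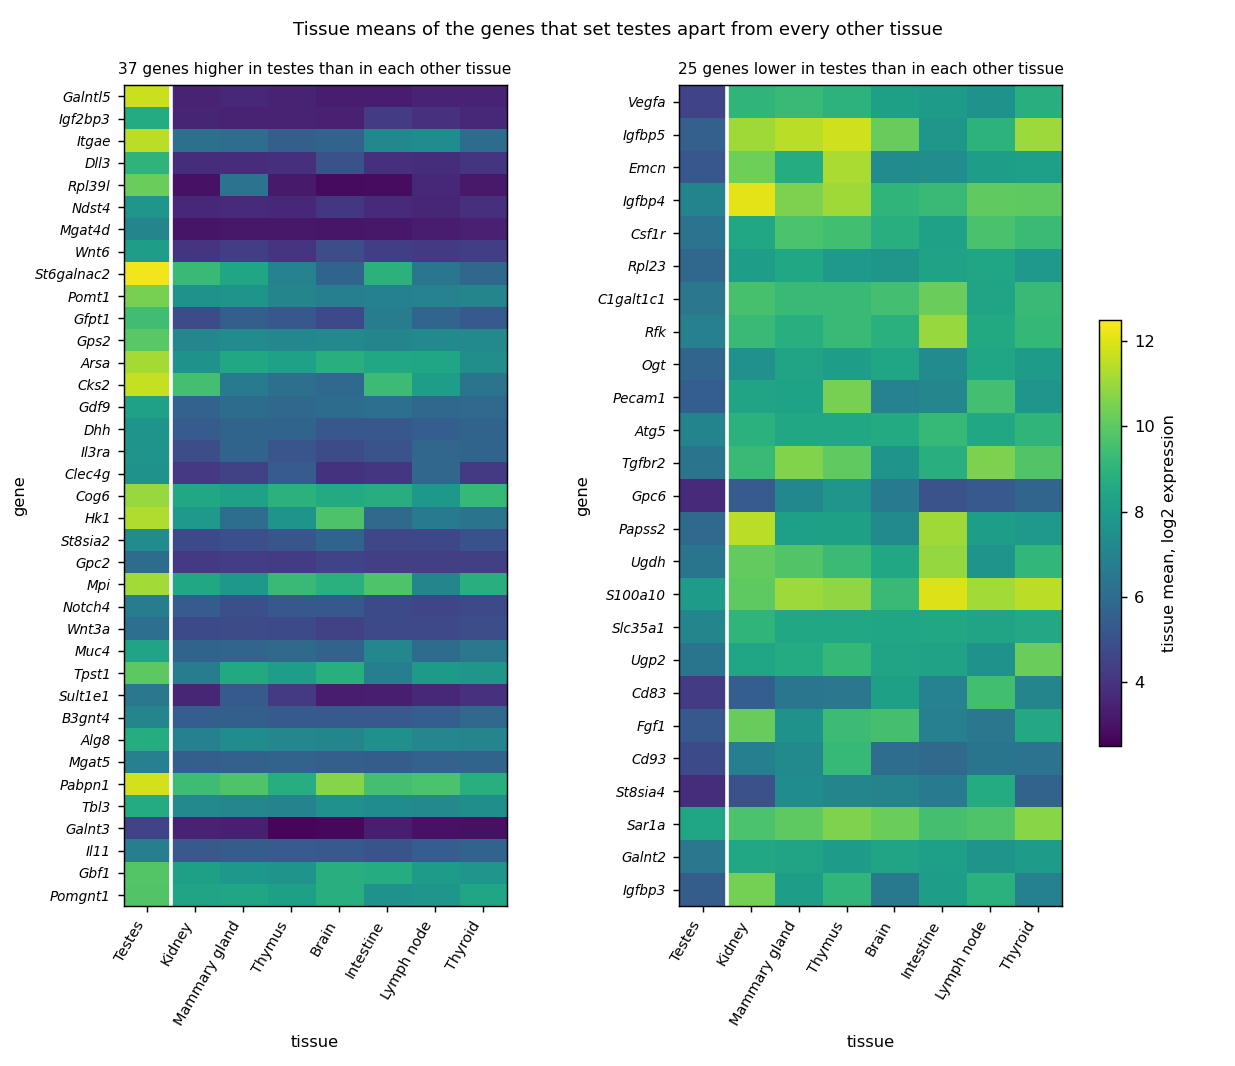
Tissue means in log2 expression, testes in the first column of each panel, for the 37 genes higher (left) and the 25 genes lower (right) in testes than in each other tissue, sorted by their gap to the nearest tissue. Colours are to be read along a row, since levels of different probe sets cannot be set against each other. Galntl5 at the top left has a gap of 8.04 to mammary gland, and Vegfa at the top right a gap of -3.10 to lymph node.

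The 25 genes lower in testes than in each other tissue were led by Vegfa, the main growth factor of blood vessels. It read 4.70, 4.23 and 4.42 in DKO testes and 4.49, 4.52 and 4.66 in WT testes, while the lowest of the 50 other arrays was 6.55. Testes were 16.63-fold below the mean of the other tissue means and 8.60-fold below lymph node, the lowest of the other tissues. Genes of vessel lining were also among them. Emcn and Pecam1, surface proteins of endothelial cells, averaged 5.23 ± 0.21 and 5.47 ± 0.12 in testes (SD, n = 6), and their lowest other tissue, brain, averaged 7.34 ± 0.18 and 6.92 ± 0.29 (SD, n = 9). Csf1r, the growth factor receptor of macrophages, lay between 5.95 and 6.78 in testes, and no other array fell below 7.63.

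Carriers of insulin-like growth factors formed another part of the 25. Igfbp5 averaged 5.58 ± 0.40 in testes (SD, n = 6) and 7.79 ± 0.72 in intestine (SD, n = 7), the lowest of the other tissues, and its difference of -4.74 ± 0.22 from the mean of the others was the largest fall measured (limma, adjusted p = 6.18e-26). Igfbp4 read 6.65, 6.49 and 6.72 in DKO testes and 6.66, 7.72 and 7.83 in WT testes, so that the WT animals N3740 and N3738 stood above the other 4 testes arrays and overlapped the lowest array elsewhere, at 7.18. Of its 3 probe sets, 2 were lower in testes than in each other tissue and the third differed by -1.27 ± 0.20 from the mean of the others. Igfbp3 averaged 5.44 ± 0.24 in testes and 6.54 ± 0.28 in brain (SD, n = 6 and 9).

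The 25 also held genes of glycan synthesis. C1galt1c1, the X-linked chaperone without which the core 1 O-glycan enzyme does not fold, read 6.45, 6.0 and 6.51 in DKO testes and 6.40, 6.77 and 6.65 in WT testes, and all other arrays lay between 7.98 and 10.99. Ogt, the X-linked enzyme that puts GlcNAc on proteins inside cells, averaged 5.78 ± 0.38 in testes and 7.34 ± 0.81 in intestine (SD, n = 6 and 7). Galnt2, which starts O-glycans, averaged 6.52 ± 0.29 in testes and 7.66 ± 0.56 in lymph node (SD, n = 6 each). Slc35a1, the Golgi carrier of CMP-sialic acid, averaged 7.09 ± 0.27 in testes and 8.35 ± 0.95 in lymph node (SD, n = 6 each). Ugdh, Ugp2 and Papss2, which supply UDP-glucuronate, UDP-glucose and the sulfate donor PAPS, stood 2.48-, 2.37- and 2.54-fold below their lowest other tissue. Rfk, riboflavin kinase, and Rpl23, a ribosomal protein, were also in the group, Rpl23 on a probe set that may share probes with other transcripts. Tgfbr2, a receptor of TGF-beta, averaged 6.34 ± 0.37 in testes and 7.69 ± 0.40 in brain (SD, n = 6 and 9), but its second probe set did not differ (0.12 ± 0.10). Lum and Cd44, a matrix proteoglycan and the hyaluronan receptor, were among the largest falls against the mean of the others, at -3.62 ± 0.31 and -3.10 ± 0.21, without being lower than each tissue.

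Lists of genes by function are read against the share of all genes, 8.03% higher and 20.4% lower with a median difference of -0.10. In the gene family of the enzymes that start O-glycans with GalNAc, 3 of 19 were higher: Galnt10, Galnt3 and the transferase-like Galntl5. Lower were 4 of them (Galnt4, Galnt2, Galnt11 and Galnt1). Galnt4 differed by -2.36 ± 0.19 and Galnt10 by 1.46 ± 0.15. Of 8 genes for O-glycan cores, 3 were lower and 0 higher, led by C1galt1c1 at -2.89 ± 0.13 and Gcnt1, the core 2 branching enzyme, at -1.73 ± 0.26, whose second probe set gave -0.44 ± 0.08.

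The sialyltransferases are grouped by the linkage they make. Of 6 alpha-2,3-sialyltransferases 4 were lower and 0 higher (St3gal6, St3gal1, St3gal3 and St3gal2), with a median difference of -1.25. Of 7 alpha-2,6-sialyltransferases 1 was higher, St6galnac2, and 0 were lower, with a median of 0.32. Of 6 alpha-2,8-sialyltransferases St8sia2 was higher and St8sia4, St8sia1 and St8sia6 were lower. St8sia4 is the other polysialic acid enzyme and averaged 3.81 ± 0.26 in testes, against 4.98 ± 0.36 in kidney, the lowest of the other tissues (SD, n = 6 and 9). The 2 enzymes of polysialic acid thus moved in opposite directions. Of 10 genes that make, activate or remove sialic acid 5 were lower and 0 higher, among them Neu1, the lysosomal sialidase, at -2.13 ± 0.13 and Cmah, which turns N-acetyl- into N-glycolylneuraminic acid, at -1.55 ± 0.16. After the second quantile normalization Slc35a1 and Gne, both among these 5, differed by -0.90 and -0.85, short of the 2-fold limit. The call of St3gal2 was lost in wild-type arrays alone, at -0.97.

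Of 16 genes that assemble the lipid-linked precursor 3 were higher (Alg8, Alg9 and Alg12) and 2 lower (Dpagt1 and Alg5), with a median of 0.28. Of 14 processing genes Mgat4a and Mgat5 were higher and Mgat1 was lower, with a median of 0.18. Mgat4a, a branching enzyme, differed by 2.22 ± 0.13 but was matched by intestine, which averaged only 0.17 log2 units less. Of 16 GlcNAc-transferases 7 were lower, led by Gcnt2, which branches poly-lactosamine, at -2.61 ± 0.24, and B3gnt4 alone was higher.

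Of 16 genes of glycolipid synthesis 3 were lower, B4galt6, St8sia1 and B3gnt5, and 0 higher, with a median of -0.04. Of 10 fucosyltransferases Fut9 and Fut11 were lower and 0 were higher. Fut9 was used to leave out arrays of brain and intestine, so its difference of -2.22 ± 0.22 is only a description. Of 8 beta-GalNAc-transferases, the family of the deleted genes, Csgalnact2 was lower and 0 were higher.

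Among glycosaminoglycan genes, Ndst4 was the only one of 24 for heparan sulfate that was higher in testes, and 5 were lower (Hs6st1, Ndst1, Hs3st1, Extl3 and Ext1). Of 18 for chondroitin sulfate and the linkage region Chpf was higher and Csgalnact2 and Chst11 lower, and the Chpf difference of 1.02 ± 0.12 lay at 0.85 without animals N3740 and N3738. Of 26 proteoglycans 9 were lower and 2 were higher, Gpc2, a glypican of developing neurons, and Spock2. Of 12 carbohydrate and tyrosine sulfotransferases 2 were higher, Tpst1 at 2.13 ± 0.14 and Chst1 at 1.84 ± 0.25, and 0 were lower.

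Of 25 genes for nucleotide sugars 4 were higher (Hk1, Gfpt1, Mpi and Gfus) and 8 lower, led by Ugdh and Papss2. Of 19 nucleotide sugar carriers 1 was higher, Slc35f2, and 4 lower. Of 26 lysosomal genes Arsa and Naglu were higher and 6 lower. Of 10 glucuronosyltransferases and cytosolic sulfotransferases Sult1e1, the estrogen sulfotransferase known from Leydig cells, and Ugt1a6b were higher, and Sult1d1 and Sult1a1 were lower. Sult1e1 averaged 6.49 ± 0.52 in testes (SD, n = 6) while mammary gland arrays spread between 3.38 and 8.24, so that the 2 tissues overlapped. Of 8 mucins Muc1 and Muc4 were higher and 0 lower. Muc1 averaged 7.97 ± 0.18 in testes, and kidney was within 0.46 log2 units of it.

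Among genes of Wnt and hedgehog signalling Wnt6, Dhh and Wnt3a were higher, and 3 of 34 were lower, with a median of 0.27. Of 15 Notch genes Dll3, Notch4 and Jag2 were higher and 6 were lower, led by Jag1 at -1.71 ± 0.19 and Notch1 at -1.35 ± 0.16. Of 12 genes of the insulin-like growth factor axis 6 were lower and Igfbp2 was higher, by 2.11 ± 0.26. Of 18 genes of the VEGF, PDGF and EGF systems 7 were lower and 0 higher, and of 9 angiopoietin genes 4 were lower and 0 higher. Of 30 TGF-beta and BMP genes 8 were lower and Gdf9 alone was higher.

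Of 29 chemokines 9 were lower, led by Cxcl13 and Ccl11 at -2.78 ± 0.45 and -2.39 ± 0.22, and Ccl27a alone was higher. Its 3 probe sets gave 2.61 ± 0.23, 5.30 ± 0.12 and 1.07 ± 0.14, all upward, and 1 of them was higher than in each other tissue. Of 65 interleukins and their receptors 3 were higher and 8 lower, of 38 C-type lectins 1 was higher and 10 lower, and of 10 galectins 4 were lower and 0 higher. Of 9 siglecs Mag was higher and Siglech lower. The 3 probe sets of Siglech gave -1.37 ± 0.21, -1.36 ± 0.20 and -0.95 ± 0.23, and the last was not called. Within the B4galnt1/B4galnt2 line alone Siglech differed by -0.55, short of the 2-fold limit. Of 18 natural killer receptors Klrd1 was lower, and 17 were not called in either direction. The shares lower among interleukins and natural killer receptors lay below the share of all genes. The mean over the natural killer receptors lay between 3.74 and 3.89 in testes arrays and between 3.32 and 5.28 elsewhere. In testes this is below the 25th percentile of all values, 4.21. Whether such low levels limited the number of falls was not tested.

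**Figure D4:**
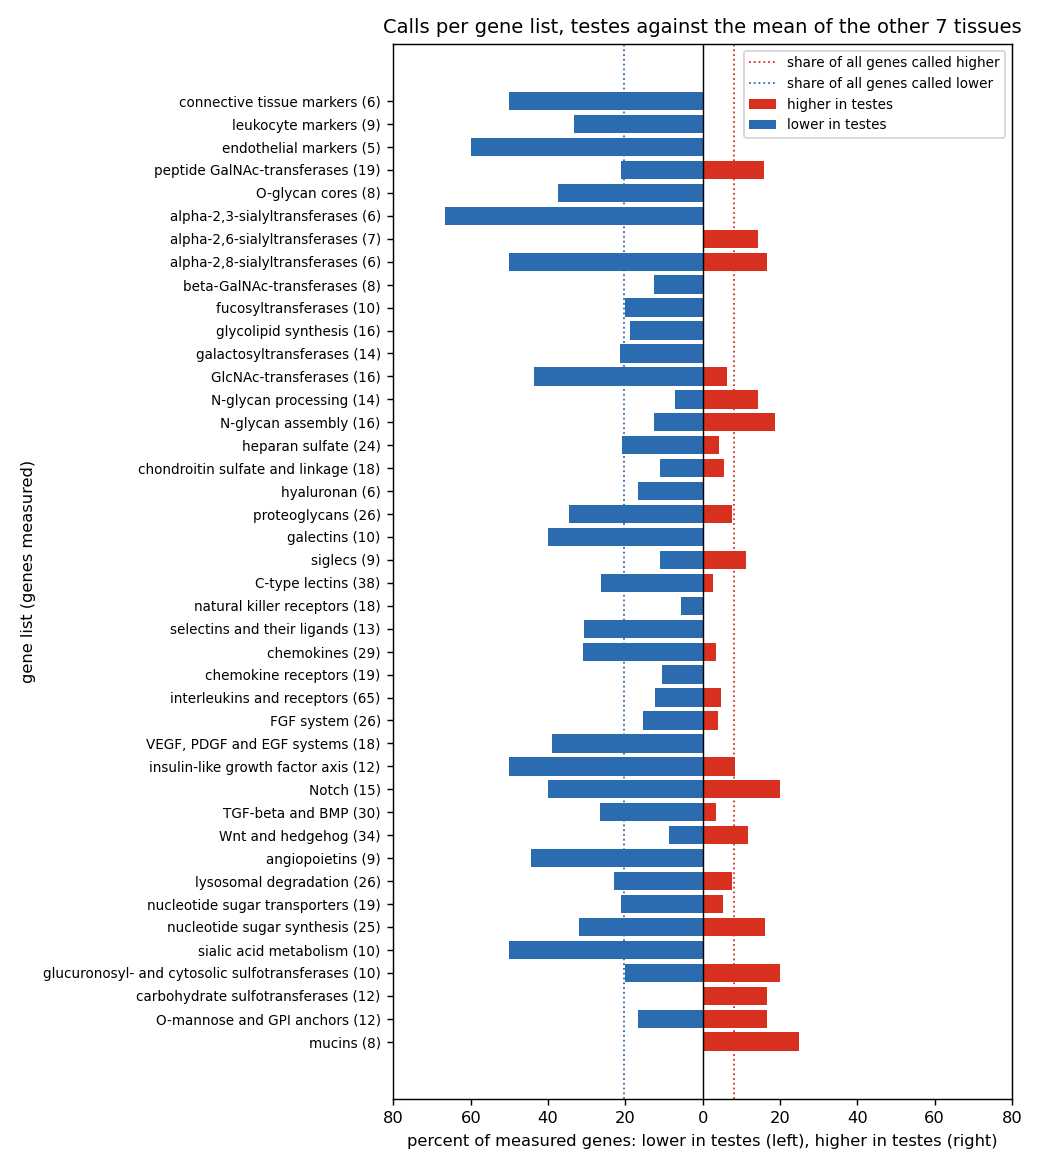
Percent of the measured genes of each list that were lower (blue, leftward) or higher (red, rightward) in testes than the mean of the other 7 tissue means, with the number measured in parentheses; lists with at least 5 measured genes are drawn. Dotted lines mark the shares of all genes, 20.4% lower and 8.03% higher. The longest leftward bar is that of the alpha-2,3-sialyltransferases (4 of 6), and the longest rightward bar that of the mucins (2 of 8).

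Cell type markers were read as a description, and the array holds few of them. Of 22 germ cell markers 3 were measured. Galntl5 and Rpl39l were higher in testes, but both are among the 4 marker genes given with this comparison, so they do not check the label. Kit, a receptor of early germ cells, was not called (0.63 ± 0.27). Of 11 Sertoli markers Dhh alone was measured, and of 8 Leydig markers 0 were. The mean over the measured endothelial markers lay between 5.15 and 5.47 in testes arrays and between 5.54 and 8.18 in the others, with 3 of 5 lower. For connective tissue these means lay between 6.23 and 6.41 in testes and between 5.996 and 9.58 elsewhere (3 of 6 lower), for leukocytes between 5.62 and 5.94 in testes and between 5.01 and 8.44 elsewhere (3 of 9 lower), and for epithelia between 5.996 and 6.26 in testes and between 4.81 and 9.60 elsewhere (1 of 4 higher, 0 lower). Their part in the falls was not tested.

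Some of these calls did not hold under other settings. After the second quantile normalization Alg5, Ndst1 and Slc35a1 differed by -0.62, -0.90 and -0.90, short of the 2-fold limit. Within the B4galnt1/B4galnt2 line alone B3gnt5, Klrd1 and Ugt1a6b differed by -0.38, -0.76 and -0.24, and only the first 2 of them kept an adjusted p under 0.05 in limma. In wild-type arrays St8sia6 differed by -0.98. Without animals N3740 and N3738 Ugt1a6b differed by 0.86.

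By chromosome, the 24 X-linked genes measured had a median difference of -0.73, and 9 of them (37.5%) were lower and 0 higher. Over 885 autosomal genes the median was -0.10, with 176 (19.9%) lower and 73 (8.25%) higher. X-linked genes are known to be silenced in male germ cells during meiosis. The X was not alone at this share, since 9 of 24 genes on chromosome 13 (37.5%) and 8 of 22 on chromosome 18 (36.4%) were lower. After C1galt1c1, the largest X-linked falls were those of Il13ra1, Fgf13 and Ogt, at -2.58 ± 0.19, -2.29 ± 0.27 and -2.24 ± 0.19. The largest upward difference on the X, that of Vegfd, was 0.41 ± 0.20.

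Among themselves the 6 testes arrays differed little, with a median SD of 0.18 over genes, near that of kidney (0.16) and below that of intestine (0.31). Their variation had a common pattern. Animals N3740 and N3738, both WT, lay together above the other 4 for 357 genes and below them for 52, a total of 409 of 909. The next pair, DKO N5894 and WT N9700, did so for 216 genes. With the testes mean subtracted, N3740 and N3738 correlated at 0.58 across genes, and the other 14 pairs at between -0.67 and 0.14. The 75th percentile of the values was 7.59 and 7.63 in these 2 arrays and between 7.21 and 7.32 in the other 4. Cog6, for example, read 10.87, 10.65 and 10.79 in DKO testes and 10.78, 11.38 and 11.30 in WT testes, with WT N9700 among the DKO values.

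The 5 genes with the largest SD over testes were Ugdh (0.81), Clec4g (0.75), Pgm5 (0.73), Ugt1a6b (0.66) and Igfbp4 (0.60). For Ugdh and Pgm5 the spread came from WT N9700, at 7.94 and 5.22, with the other 5 arrays at 5.60 to 6.35 and 3.19 to 3.88. For Clec4g the same animal was lowest, at 6.61. The comparison of DKO with WT testes called 3 probe sets lower (0.312% of 963) and 0 higher in limma, with 124 at an unadjusted p under 0.05. Ugt1a6b, a glucuronosyltransferase gene that shares exons with its neighbours, averaged 8.49 ± 0.16 in DKO and 9.63 ± 0.30 in WT testes (SD, n = 3 each), a difference of -1.14 ± 0.17 (SE; limma, adjusted p = 0.0264). Without WT N9700 the same comparison called 12 probe sets higher and 193 lower, and with any other animal left out it called 0, with 53 to 95 at an unadjusted p under 0.05.

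Against the other 7 tissues neither of the 2 targeted genes was called. B4galnt1, which makes the gangliosides GM2 and GD2, read 6.92, 7.09 and 6.93 in DKO testes and 6.99, 7.33 and 7.57 in WT testes, and B4galnt2, which adds GalNAc to sialylated chains, read 4.60, 4.38 and 4.75 in DKO testes and 4.45, 4.55 and 4.28 in WT testes. The position of the probes relative to the deleted parts is not given in the sources used here, so these levels do not check the genotype labels. Against the mean of the other tissue means B4galnt1 differed by 0.06 ± 0.28 (limma, adjusted p = 0.866) and B4galnt2 by -0.58 ± 0.50 (adjusted p = 0.298). Within the B4galnt1/B4galnt2 line alone, against kidney, mammary gland and thymus, B4galnt1 was higher in testes by 1.41 (limma, adjusted p = 3.58e-05) and B4galnt2 was not called, at 0.06. Testes lay 2.39 and 4.81 log2 units below intestine, the highest tissue for both. For B4galnt2 the intestine arrays were far from uniform. It averaged 11.77 in the C57 WT arrays, which are labelled small intestine. In intestine of the St6galnac2 line it averaged 7.35 in KO and 7.60 in WT arrays, so the gap of 4.81 depends on how these groups are mixed.

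**Figure D5:**
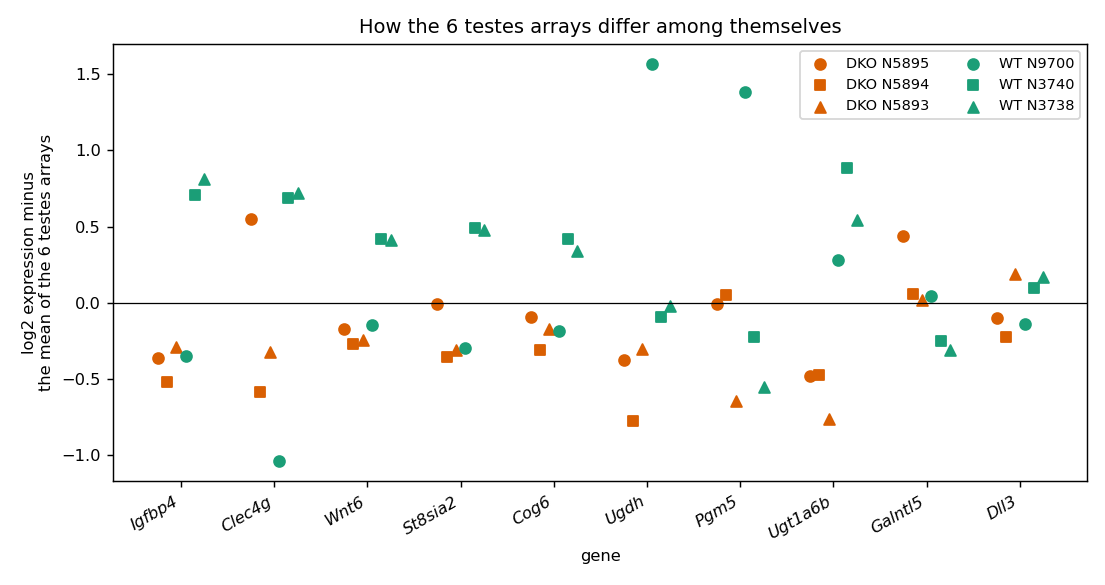
Log2 expression of 10 genes in each of the 6 testes arrays, as the difference from their mean, with DKO animals in orange and WT animals in green. For Igfbp4, Wnt6, St8sia2 and Cog6 the WT animals N3740 and N3738 lie together above the other 4 arrays, while for Ugdh and Pgm5 WT N9700 stands alone, and Galntl5 and Dll3 vary by less than 1 log2 unit.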

How the data were processed

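The deposited series table holds log2 expression values for 1246 probe sets on 60 arrays, which the authors summarised from the probes by RMA (robust multi-array averaging), according to the submitters' processing notes. Its version, and whether all arrays were normalized together, is not given in the sources used here. Values lay between 2.11 and 14.07 and were used as deposited.

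Probe sets were named through their RefSeq identifiers (963 named, 909 genes), and 283 without a symbol were tested only in an alternative. For genes measured more than once, the probe set with the highest mean stands for the gene. Probes of 217 named probe sets may match other transcripts, by their suffix.

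A mean per tissue was fitted to 56 arrays with limma 3.58.1 in R 4.3.3, with lines and genotypes pooled. Each animal gave at most 1 of these arrays per tissue. Many animals gave several tissues, and the main fit treated their arrays as independent. Its p-values measure the spread between the arrays of a tissue, which includes differences between lines and genotypes. The contrasts were testes minus the mean of the other 7 tissue means and testes minus each tissue, 2-sided, adjusted by Benjamini-Hochberg over 963 probe sets and called at an adjusted p under 0.05 and a log2 difference of at least 1. For arrays, their number limits the precision. DKO and WT testes were compared on 6 arrays without the log2 limit. Errors are SD for means and SE for differences. The fit was tested on simulated data, where the contrast with the mean of the others called every change put in, and the contrasts with each tissue nearly all. Apart from these changes the simulated tissues had equal means and independent noise, without effects of line, genotype or animal. The simulation therefore shows only that such changes are found, and it does not check the calls in the real data.

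The arrays, members, gene lists, motifs and alternatives were chosen with earlier results of these data known. Named were the 4 given marker genes, the 2 targeted genes, up to 20 genes higher and 10 lower than each tissue, the 12 largest rises and falls, up to 4 called genes of each list, and the 5 genes of largest SD in testes. Others that stand in a count of few were chosen after their values were seen. Alternatives covered scaling, filters, sex, genotype, line, moderation, single animals and the animal as a block. Promoters came from RefSeq (GRCm38.p6). A further result is not reported here.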

Additional observations from a re-analysis of the deposited data

Results flagged for a closer look

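Of 140 named genes, 10 had a testes array whose distance from the other 5 was large for the range of the 6. Chance alone flags about 1 in 20 groups, but 5 of the 140 genes, Ugdh and Pgm5 among them, were named for their large SD over testes, so no count expected by chance is given. WT animal N9700 was the distant array for 5 of them. It read 7.94 for Ugdh, with the others at 5.60 to 6.35, and 5.22 for Pgm5, with the others at 3.19 to 3.88. It read 9.59 for Igfbp2, with the others at 8.19 to 8.58, and lay lowest for Gdf9, at 7.95 with the others at 8.21 to 8.32, and for Sult1a1, at 6.04 with the others at 6.47 to 6.67. WT animal N3738 was highest for Sdc2, at 6.82 with the others at 6.33 to 6.48, and for Igfbp3, at 5.89 with the others at 5.25 to 5.48. DKO animal N5893 was highest for St8sia4, at 4.31 with the others at 3.62 to 3.87, and for Fut11, at 5.22 with the others at 4.88 to 5.0. DKO animal N5894 was lowest for Slc35e3, at 5.74 with the others at 6.21 to 6.37.

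Among 283 probe sets without a symbol, which entered no comparison above, 11 were higher in testes than in each other tissue and 1 was lower than in each. The 11 exceeded their next tissue by 1.13 to 6.20 log2 units.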

How the results depend on the processing

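Over 963 probe sets, 81 were higher and 194 lower than the mean of the other tissues, 41 higher than each tissue and 27 lower than each. At a log2 difference of at least 2 the first 2 counts were 35 and 46. Within the B4galnt1/B4galnt2 line, where only kidney, mammary gland and thymus are left to compare, 67 were higher and 100 lower than each, and 40 of the 41 and all 27 kept their call. Leaving out each testes animal in turn gave 80 to 83 higher, 187 to 203 lower, 38 to 42 higher than each and 26 to 33 lower than each. With the animal as a random replicate block the counts were 80, 192, 41 and 27. Testes minus kidney called 101 higher and 195 lower, and 101 and 189 with the animal as a fixed block, which pairs the 2 tissues of 1 animal. The second quantile normalization gave 52 higher and 19 lower than each, and leaving out N3740 and N3738 gave 37 and 37. These counts stayed within 1.5 times the first ones also with all 60 arrays, all probe sets, median centring, dim probe sets left out, male arrays, wild-type arrays, trend and robust moderation, and without a lymph node array of animal 9094. This lymph node setting and the one without N3740 and N3738 were chosen after the data were seen. DKO against WT testes called 3 probe sets, and between 0 and 205 with 1 animal left out. No paired analysis was possible there because no animal is in both genotypes. Of 2520 single-gene values over 140 genes and 18 settings, 2481 kept direction and call, 32 lost the call, 1 gained it (B4galnt1 within the line, 1.41) and 6 changed sign. Of these 6 only Ugt1a6b was a called value, at -0.24 within the line. The others were B4galnt2, at 0.059 within the line, and B4galnt1, at -0.057 with all 60 arrays, -0.05 without N3738 (-0.05 to 0.122 over the 6 animals left out in turn), -0.122 without N3740 and N3738 and -0.002 without the lymph node array. The cause was not tested. The 6 testes arrays came from 1 line, and their number limits the precision.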
